A study of Mus musculus with 6 samples.

Results

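The SLC25 family of mitochondrial solute carriers was taken as all protein-coding genes of the GENCODE M21 mouse annotation whose symbol starts with Slc25a. The annotation holds 47 of them among 22028 protein-coding genes. A read was counted for 43 members, and 32 passed the count filter, out of 8684 genes that passed it in the whole series. Mouse interscapular brown adipose tissue, a fat depot that makes heat, was sampled, and its polyadenylated RNA was read as long direct cDNA on Oxford Nanopore flow cells. All 6 mice were wild type C57BL/6N males of 20 weeks. The 3 cold mice (numbers 4, 11 and 15) were housed alone at 4 °C for 24 h, and the 3 control mice (numbers 2, 9 and 14) were kept at 22 to 24 °C. If the controls shared cages, single housing cannot be told apart from cold. The homogenisation step of the labels' protocol names another fat depot, while the tissue fields name interscapular brown fat.

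Each mouse gave 1 library on 2 flow cells, and these were summed to between 1657985 and 2238056 reads a mouse. At that depth 3 reads correspond to 1.34 to 1.81 CPM, here the count per 1000000 reads of a library, corrected for its composition. Markers of brown adipocytes had a summed level of 17402 to 22399 CPM, of which Ucp1 alone gave 9700 to 13889 CPM. Of these 9 markers 4 rose in the cold and 1 fell. Hepatocyte markers summed to at most 1.50 CPM. Erythroid markers summed to 1574 to 2915 CPM in controls and 1910 to 2843 CPM in the cold, and 0 of 5 passed the test. Of white adipocyte markers 2 of 5 tested rose, of endothelial markers 1 of 4 rose, and of fibroblast markers 2 of 4 fell. Of 5 tested markers of pericytes and smooth muscle 1 fell and 0 rose, and 0 of 2 tested macrophage markers passed. Beside all these marker counts, 9.75% of all tested genes passed as higher and 9.77% as lower. Markers of skeletal muscle varied widely between mice. Their summed level was 198, 547 and 805 CPM in control mice 2, 9 and 14 and 382, 1612 and 3941 CPM in cold mice 4, 11 and 15. All 14 were detected, 0 of the 13 tested passed the test, and their median log2 fold change was 2.18. Their values stand beside the results they moved with. In a whole tissue, fewer cells of a type and less RNA per cell cannot be told apart.

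SLC25 proteins are encoded in the nucleus and sit, with few exceptions, in the mitochondrial inner membrane, where most of them exchange one solute for another. They bring ADP, phosphate, fatty acyl carnitines, amino acids and coenzymes to the matrix and let ATP and citrate out. Brown fat mitochondria burn fatty acids and carry the uncoupling protein Ucp1, itself of this family although not named with its prefix. Ucp1 lets protons back into the matrix so that the energy is freed as heat.

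The comparison asked which carriers differed in their mRNA after a day in the cold. Of the 32 tested members 11 rose and 6 fell at an adjusted p under 0.05 in edgeR's quasi-likelihood test, and 15 did not pass. Over all 8684 tested genes 19.5% passed in either direction, 9.75% higher and 9.77% lower, against 53.1% of the members. The median log2 fold change was 0.23 over the 32 members and 0.00100 over all tested genes. The groups did not overlap in 15 members higher and 7 members lower in the cold, beside a background of 35.1% of tested genes (17.3% higher and 17.8% lower). Changes of more than 2-fold passed the test in 6 members, Slc25a34, Slc25a17, Slc25a45 and Slc25a12 upwards and Slc25a1 and Slc25a23 downwards, beside 4.77% of all tested genes. With DESeq2 6 members were higher and 4 lower, and 7 were higher on flow cell 2 alone, without control mouse 9 or without cold mouse 11. Slc25a34 had the largest increase (11.7-fold), and Slc25a1, which carries citrate, the largest decrease (5.82-fold).

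**Figure D1:**
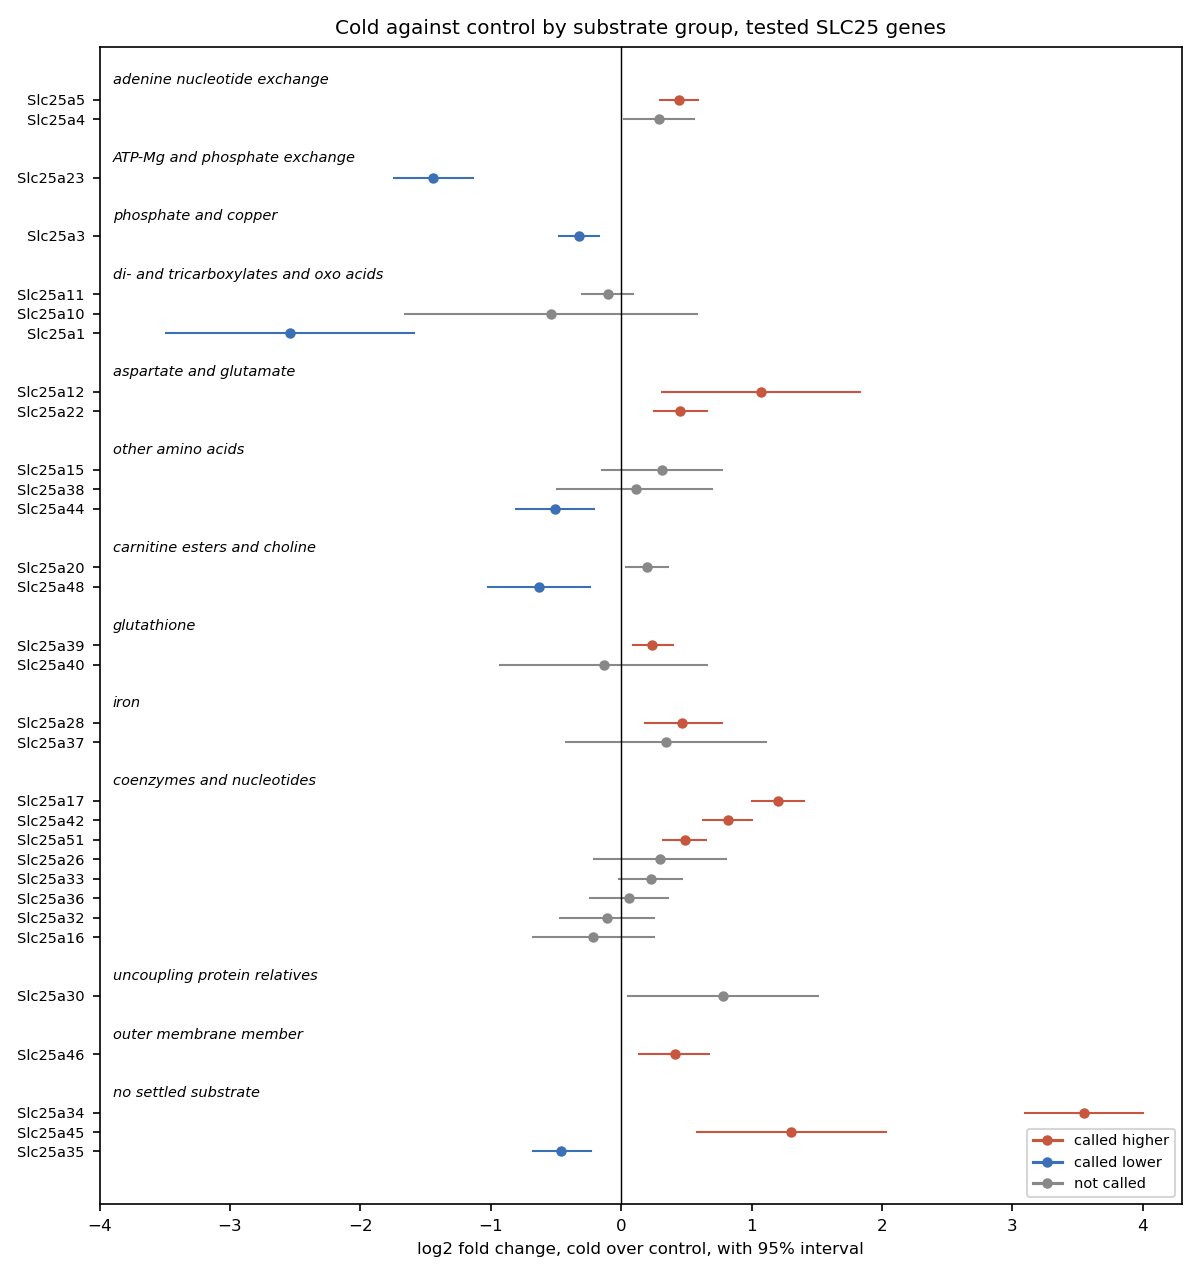
Log2 fold change of the tested SLC25 genes, cold over control, with its 95% interval from the edgeR fit on 3 mice a group, ordered by the substrate of the carrier. Red marks the 11 genes that rose, blue the 6 that fell and grey those that did not pass, of which 1 is not shown. Slc25a34 lies at 3.55 and Slc25a1 at -2.54.

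The promoters of the 3 members with the largest fold changes that passed the test are printed here because these genes moved furthest. Each is the 250 bases before the RefSeq start on GRCm38.p6, all on the minus strand, 5′ to 3′, with matches to the searched motifs in capitals.
Slc25a34, chr4:141623835-141624084: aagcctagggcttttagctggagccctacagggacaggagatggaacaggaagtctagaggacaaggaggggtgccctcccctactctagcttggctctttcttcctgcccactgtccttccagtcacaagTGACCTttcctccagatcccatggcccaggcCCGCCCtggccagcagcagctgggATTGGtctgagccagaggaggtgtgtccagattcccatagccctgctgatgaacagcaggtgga
Slc25a1, chr16:17928220-17928469: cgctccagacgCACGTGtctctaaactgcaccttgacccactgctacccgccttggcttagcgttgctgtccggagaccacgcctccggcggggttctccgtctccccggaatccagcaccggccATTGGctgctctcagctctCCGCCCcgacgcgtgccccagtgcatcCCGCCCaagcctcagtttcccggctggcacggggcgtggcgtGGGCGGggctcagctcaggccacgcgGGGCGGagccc
Slc25a23, chr17:57059864-57060113: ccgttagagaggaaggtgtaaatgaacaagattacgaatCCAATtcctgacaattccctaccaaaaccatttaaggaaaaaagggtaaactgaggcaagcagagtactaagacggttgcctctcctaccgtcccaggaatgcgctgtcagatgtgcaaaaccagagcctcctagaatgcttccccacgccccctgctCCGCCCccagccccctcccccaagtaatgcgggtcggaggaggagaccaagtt

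Of the 17 members that passed, 13 had a promoter in the RefSeq table, and shares of motifs over all 32851 promoters of that length are given for scale. Those promoters were not limited to genes past the count filter, as the 13 were, so like is not set against like. Members that did not pass were not counted apart. Whether any motif goes with the change in the cold was not tested. Both strands were searched. The E-box CACGTG lay in the Slc25a1 promoter, 239 to 234 bases before the start, and in 1 of the 13, against 6.02% of all promoters. The hexamer AGGTCA, bound by many nuclear receptors, lay on the opposite strand of the Slc25a34 promoter at 119 to 114 bases and in 3 of the 13 (Slc25a34, Slc25a39 and Slc25a45), against 14% of all. The GC box GGGCGG lay in 12 of the 13 against 32.7%, with 4 copies in Slc25a1, and CCAAT in 6 against 33.8%. The letters TGACG, which begin the cAMP response element, lay in 2 of the 13, Slc25a3 and Slc25a28, against 17.8%. The full element TGACGTCA (1.55% of all), the sterol response motif TCACNCCAC (1.05%) and the extended motif TCAAGGTCA of the estrogen-related receptors (0.387%) were not in these 13 windows. The Slc25a1 window had a GC content of 70%, that of Slc25a34 58.4% and that of Slc25a23 52.4%. Some of these motifs overlap in part: TGACGTCA contains TGACG, and TCAAGGTCA contains AGGTCA.

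**Figure D2:**
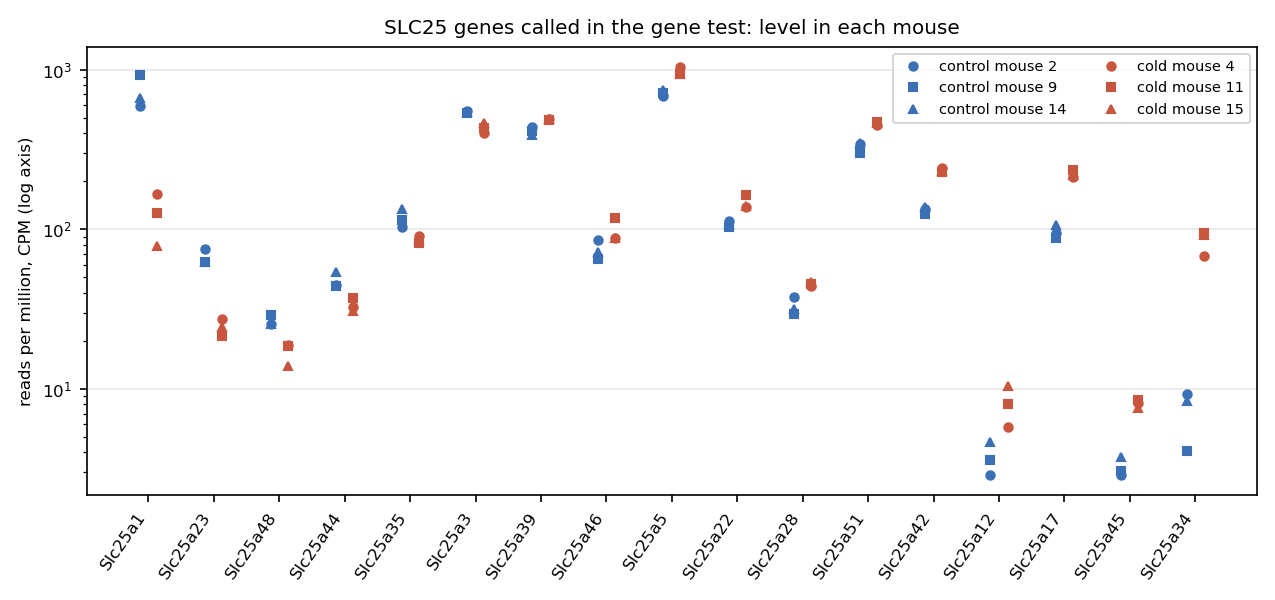
Level of the 17 SLC25 genes that passed the gene test in each mouse, in CPM on a log axis, control mice in blue and cold mice in red. In each of the 17 genes the 3 cold mice lie on one side of the 3 control mice, from Slc25a1, with 591 to 922 CPM in controls and 78.6 to 167 CPM in the cold, to Slc25a34, with 4.08 to 9.26 and 68.1 to 94.7 CPM.

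Carriers that swap ADP for ATP were among the most abundant of the family, and 1 of their 2 tested genes rose. For this and each later substrate group the shares over all tested genes were 9.75% higher and 9.77% lower. Most groups hold few tested genes, and no group was tested as a set. Slc25a5, adenine nucleotide translocase 2 (chrX:36795651-36798807), had 689.7, 712 and 744 CPM in control mice 2, 9 and 14 and 1035, 946 and 938 CPM in cold mice 4, 11 and 15. The groups were well apart, and the gene rose 1.36-fold (log2 fold change 0.44, SE 0.07, adjusted p = 8.59e-05, edgeR). Slc25a4, translocase 1, which prevails in heart and skeletal muscle, had 812, 919.6 and 1060 CPM in controls and 1043, 1048 and 1323 CPM in the cold. Here control mouse 14 lay above cold mice 4 and 11, and the difference did not pass (log2 fold change 0.29, 95% interval 0.02 to 0.56, adjusted p = 0.133). The fit was repeated in 17 alternative settings, which leave out a mouse or change a step of the processing. Slc25a4 passed without control mouse 14 (adjusted p = 0.0195), on flow cell 2 alone (0.00382) and without the count filter (0.00213). With the level of the skeletal muscle markers as a covariate its log2 fold change was 0.09 (adjusted p = 0.584), the adjusted p ranging from 0.00213 to 0.602 over the alternatives. Slc25a4 made up 54.1, 56.3 and 58.8% of the reads of this pair in controls and 50.2, 52.5 and 58.5% in the cold, which overlap (exact two-sided permutation p = 0.400). The testis translocase Slc25a31 had 2 reads.

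The ATP-Mg carriers, which swap ATP-Mg for phosphate and respond to calcium, had 1 member with enough reads. Slc25a23 (chr17:57043711-57059863) had 75.8, 62.8 and 62.4 CPM in controls and 27.5, 21.5 and 24.5 CPM in the cold. All 3 controls lay above all cold mice, and the gene fell 2.71-fold (log2 fold change -1.44, SE 0.15, adjusted p = 2.26e-07). It passed in all 17 alternatives, with a highest adjusted p of 0.000101. Its relatives Slc25a24 and Slc25a25 had 35 and 33 reads in all and stayed under the filter, and Slc25a41 had none. Slc25a23 held 92.4 to 93.6% of the reads of the 3 detected genes in controls and 76.4 to 80.3% in the cold (exact two-sided permutation p = 0.10, the smallest that 3 against 3 mice allow).

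Slc25a3 brings phosphate, and copper, into the matrix, and its mRNA fell. It had 549.7, 539 and 540.2 CPM in controls and 403, 433 and 467 CPM in the cold (chr10:91116574-91124059), groups that did not overlap, a 1.25-fold decrease (log2 fold change -0.32, SE 0.08, adjusted p = 0.00367). The gene carries 2 alternative versions of its coding exon 3, 3A and 3B, of which 3A is known as the heart and muscle form. They are printed because the choice between them gives different carriers. Both are on the minus strand of GRCm38 as read from the GENCODE M21 transcripts, 5′ to 3′, with bases that differ in their alignment in capitals.
Slc25a3 exon 3A, chr10:91122207-91122331: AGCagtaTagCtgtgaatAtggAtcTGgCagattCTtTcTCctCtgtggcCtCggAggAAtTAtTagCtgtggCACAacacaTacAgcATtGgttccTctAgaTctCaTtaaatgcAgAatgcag
Slc25a3 exon 3B, chr10:91121922-91122043: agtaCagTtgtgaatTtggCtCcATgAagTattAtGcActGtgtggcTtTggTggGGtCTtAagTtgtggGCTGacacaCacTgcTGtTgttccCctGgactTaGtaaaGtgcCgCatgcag
The exons are 125 and 122 nt long and identical in 84 of 128 alignment columns (65.6%).

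The coding transcript with exon 3B, Slc25a3-201, held 56.5% of the gene's reads and fell from 326 ± 10.1 to 242 ± 20.6 CPM (SD, n = 3; log2 fold change -0.43, adjusted p = 0.000686, edgeR). Slc25a3-202, annotated as subject to nonsense-mediated decay, fell from 104 ± 11.9 to 76.1 ± 8.08 CPM (log2 fold change -0.44, adjusted p = 0.0100). The coding transcript with exon 3A, Slc25a3-206, had 40.5 ± 5.37 and 45.7 ± 17.8 CPM and did not pass (log2 fold change 0.16, adjusted p = 0.792). Its share of the reads of 206 and 201 together was 11.7, 9.83 and 11.6% in control mice 2, 9 and 14 and 10.8, 16.7 and 19.1% in cold mice 4, 11 and 15. Cold mice 11 and 15, which had the most skeletal muscle marker reads (1612 and 3941 CPM), lay above the rest, and cold mouse 4 lay among the controls (exact two-sided permutation p = 0.300, adjusted 0.567 over 17 shares). The part of muscle RNA in this share was not tested. Slc25a3-202 holds a longer form of exon 3A, and Slc25a3-203 also holds exon 3B. With both counted, exon 3A was in 27.3, 26.9 and 24.6% of the reads of these 4 transcripts in controls and in 26.1, 26.6 and 30.2% in the cold (exact two-sided permutation p = 0.600), so that only cold mouse 15 lay above all controls.

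**Figure D3:**
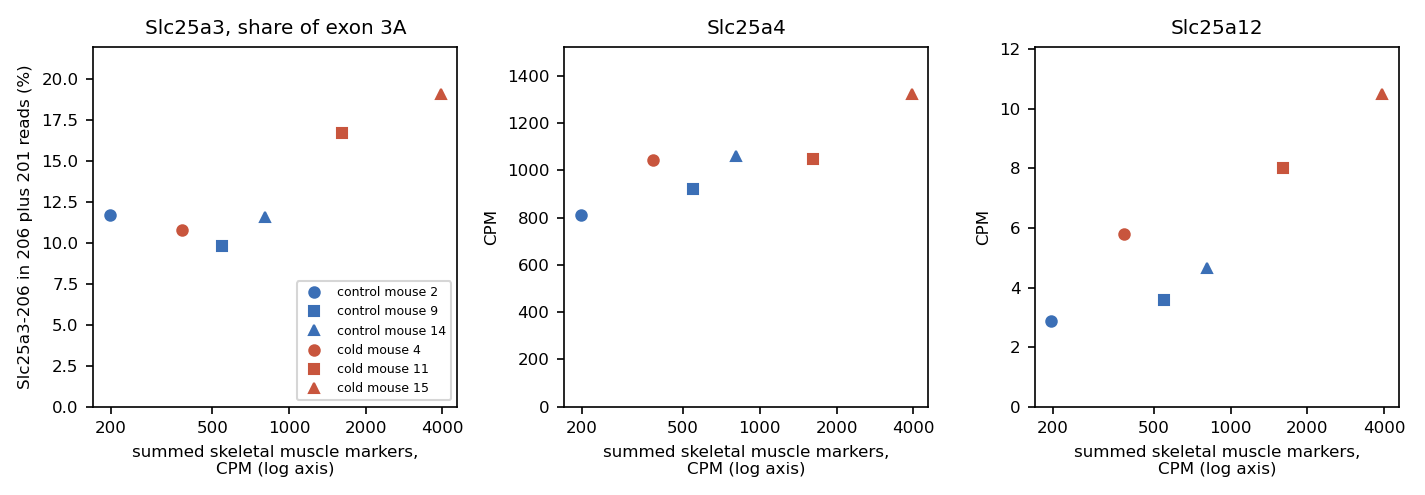
Share of Slc25a3-206, the transcript with exon 3A, in the reads of 206 plus 201 (%), and the levels of Slc25a4 and Slc25a12 (CPM), in each mouse against the summed level of 14 skeletal muscle markers (CPM, log axis). The marker sum runs from 198 CPM in control mouse 2 to 3941 CPM in cold mouse 15, which is highest in all 3 panels.

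Among carriers of di- and tricarboxylates 1 of 3 tested members fell and 0 rose. Slc25a1 (chr16:17925223-17928219) exports citrate, from which the cytosol makes acetyl-CoA for fatty acids. It had 591, 922 and 666 CPM in controls and 167, 126 and 78.6 CPM in the cold. The 2 groups were far apart although the controls spread widely, and the gene fell 5.82-fold (log2 fold change -2.54, SE 0.35, adjusted p = 0.0123). The value reached 0.0606 without cold mouse 11 and 0.0573 with a skeletal muscle covariate, and over all alternatives it ranged from 6.5e-11 to 0.0606 with log2 fold changes of -2.82 to -2.31. Slc25a11, which swaps oxoglutarate for malate, had 192 to 223 CPM in controls and 176 to 210.4 CPM in the cold (adjusted p = 0.493). Rnf167, an opposite-strand gene with 302 reads against 2311, shares 189 nt with it. The dicarboxylate carrier Slc25a10 had 3.47, 18.9 and 11.6 CPM in controls and 9.66, 8.02 and 5.82 CPM in the cold (adjusted p = 0.515), a range wide enough that it passed only without control mouse 2 (0.0476; other alternatives up to 0.992). Slc25a21 had 1 read.

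Of 9 tested genes listed around citrate and acetyl-CoA in the cytosol 7 fell and 1 rose. The 1 that rose was Mdh1, which is counted again below with the malate-aspartate shuttle. For this and each later list of genes outside the family, the shares over all tested genes were 9.75% higher and 9.77% lower. Acly, which splits citrate into acetyl-CoA and oxaloacetate, had 2167 to 3819 CPM in controls and 216 to 573 CPM in the cold (7.35-fold lower, adjusted p = 0.0204). It missed the threshold without control mouse 9 (0.0641), control mouse 14 (0.0708) and cold mouse 11 (0.0851) and with the muscle covariate (0.0799), in a range from 2.72e-09 to 0.0851. Acaca, which makes malonyl-CoA, fell 3.86-fold (adjusted p = 0.00806) and passed in all alternatives.

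Both tested carriers of aspartate and glutamate rose. Slc25a22, a glutamate carrier (chr7:141429744-141437892), had 113, 103 and 108 CPM in controls and 139, 163 and 141 CPM in the cold, a 1.37-fold rise with no overlap (log2 fold change 0.45, SE 0.10, adjusted p = 0.00191). Slc25a12, the aspartate-glutamate carrier aralar of muscle and brain, had few reads, 68 in all. Its levels were 2.89, 3.57 and 4.65 CPM in control mice 2, 9 and 14 and 5.80, 8.02 and 10.5 CPM in cold mice 4, 11 and 15 (chr2:71271063-71367749), a 2.10-fold rise (log2 fold change 1.07, SE 0.37, adjusted p = 0.0410). Within each group the levels stood in the same order as the skeletal muscle markers, and with a muscle covariate the log2 fold change was 0.64 (adjusted p = 0.382). The call was also lost without control mouse 2 (0.136), 9 (0.114) or 14 (0.0611), without cold mouse 11 (0.0989) or 15 (0.185), on the 4 libraries other than control mouse 2 and cold mouse 15 (0.309) and with DESeq2 (0.208), in a range from 0.0331 to 0.382. Slc25a13, known from liver, had 3 reads, and Slc25a18 had 4, beside 2101 of Atp6v1e1 on the opposite strand, with which it shares 32 nt.

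Aspartate carriers work with 4 enzymes of the malate-aspartate shuttle, which moves reducing equivalents into mitochondria. All 4 were tested, and 2 rose and 0 fell. Got1, the cytosolic aspartate aminotransferase, had 36.5, 28.6 and 33.5 CPM in controls and 141, 135 and 161 CPM in the cold, 4.43-fold higher (adjusted p = 2.02e-11), and passed in all alternatives. The other was Mdh1, the cytosolic malate dehydrogenase, at 978 ± 44.1 and 1157 ± 23.6 CPM (SD, n = 3; adjusted p = 0.0121, edgeR), whose call was lost without control mouse 2 (0.0702), without cold mouse 4 (0.0613) and in 4 further alternatives, up to 0.212. Their mitochondrial counterparts had 21.3 ± 6.58 and 24.7 ± 8.39 CPM (Got2, adjusted p = 0.623) and 916 ± 25.6 and 994 ± 16.1 CPM (Mdh2, adjusted p = 0.240).

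Of 3 tested carriers of other amino acids 1 fell and 0 rose. Slc25a44, described as the branched-chain amino acid carrier of brown fat mitochondria (chr3:88410498-88425139), had 44.6, 44.4 and 54.0 CPM in controls and 32.4, 37.1 and 30.9 CPM in the cold. The groups did not overlap, and the gene fell 1.43-fold (log2 fold change -0.51, SE 0.14, adjusted p = 0.0136). This call was lost without control mouse 14 (0.0915), cold mouse 4 (0.0556) or cold mouse 15 (0.0523), on flow cell 2 (0.0888), on those 4 libraries (0.0711) and with DESeq2 (0.117), in a range from 0.0107 to 0.117. Slc25a15, which carries ornithine, had 10.7 to 14.5 CPM in controls and 15.1 to 16.4 CPM in the cold, groups that did not overlap but did not pass the test (adjusted p = 0.373). The glycine carrier Slc25a38, needed for heme synthesis, had 6.94 to 9.19 and 7.73 to 9.32 CPM (adjusted p = 0.847). Slc25a29, a carrier of basic amino acids, had 16 reads and Slc25a2 none.

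Genes of branched-chain amino acid breakdown and of its control moved both ways, with 3 of 10 tested higher and 2 lower. The 2 lower were Bckdha and Bckdk. Dbt, a subunit of the branched-chain ketoacid dehydrogenase, rose 1.95-fold from 149 ± 9.73 to 291 ± 9.11 CPM (SD, n = 3; adjusted p = 4.11e-08, edgeR). Other subunits of the complex, chosen after their values were seen, did not move together. Bckdha had 151 ± 10.5 CPM in controls and 111 ± 12.9 CPM in the cold, 1.36-fold lower (adjusted p = 0.00324), and passed in all alternatives. Bckdhb rose 1.30-fold from 78.0 ± 12.0 to 101 ± 2.87 CPM (adjusted p = 0.0209), a call lost without control mouse 9 (0.141) or 14 (0.0555), without cold mouse 4 (0.0811), on flow cell 2 (0.438) and with DESeq2 (0.128), in a range from 0.0127 to 0.438. Bckdk, the kinase that switches that complex off, fell 1.65-fold from 87.7 ± 2.74 to 53.1 ± 2.71 CPM (adjusted p = 5.86e-05). Among urea cycle and polyamine genes 4 of 5 tested rose and 0 fell, led by Odc1, which makes putrescine from ornithine, at 2.16-fold (adjusted p = 8.82e-07), and Sat1, which acetylates polyamines, at 1.66-fold (adjusted p = 2.95e-05).

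The carnitine carrier Slc25a20 takes acyl carnitines to the site of fatty acid oxidation, and per kb of transcript it came next after Slc25a5 and Slc25a4 in the cold. It had 723, 640.5 and 734 CPM in controls and 867, 770.0 and 767 CPM in the cold. The groups did not overlap, yet the difference did not pass (log2 fold change 0.20, 95% interval 0.04 to 0.36, adjusted p = 0.0737). It passed without cold mouse 15 (0.0499), and over the alternatives the adjusted p reached 0.33. Slc25a48, described as a choline carrier (chr13:56438355-56474239), had 25.5, 29.1 and 25.6 CPM in controls and 18.8, 18.5 and 14.0 CPM in the cold, a 1.55-fold decrease without overlap (log2 fold change -0.63, SE 0.19, adjusted p = 0.0200). That call was lost without control mouse 9 (0.0742) or cold mouse 15 (0.0895), on flow cell 2 (0.197), with the muscle covariate (0.121), on 4 libraries (0.114) and with DESeq2 (0.145), in a range from 0.0168 to 0.197.

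In the carnitine system around Slc25a20, 4 of 7 tested genes rose and 0 fell. Cpt1a, an outer membrane enzyme that forms acyl carnitines, rose 4.84-fold from 6.04 ± 2.04 to 30.3 ± 5.98 CPM (SD, n = 3; adjusted p = 9.88e-07, edgeR). Cpt1b, its muscle and brown fat counterpart, rose 1.47-fold from 267 ± 39.7 to 393 ± 23.0 CPM (adjusted p = 0.000253). Slc22a5, which takes carnitine into the cell, rose 1.75-fold (adjusted p = 0.000269). All 3 passed in every alternative.

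Glutathione enters the matrix through Slc25a39 and Slc25a40, and 1 of them rose. Slc25a39 (chr11:102402985-102407946) had 439.7, 415 and 389 CPM in controls and 495, 487 and 489 CPM in the cold, where the 3 mice lay close together. The increase was 1.18-fold (log2 fold change 0.24, SE 0.07, adjusted p = 0.0247). The adjusted p was 0.0622 and 0.164 without control mice 9 and 14, 0.0863 and 0.052 without cold mice 4 and 11, 0.0671 and 0.0749 on flow cells 1 and 2 alone, 0.135 with coding transcripts only and 0.122 with DESeq2, in a range from 0.0196 to 0.164. Slc25a40 had 4.59 to 6.05 and 2.90 to 6.01 CPM (adjusted p = 0.854), so that Slc25a39 held 98.5 to 99.4% of the reads of the pair in every mouse. Of 7 tested genes that make or use glutathione 3 fell and 0 rose. Gpx4, which reduces lipid peroxides, fell 1.71-fold (adjusted p = 1.57e-06), and Gpx1, which reduces hydrogen peroxide, fell 1.62-fold (adjusted p = 0.000276).

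Iron is brought in by the mitoferrins, and the 1 that prevails outside erythroid cells rose. Slc25a28, mitoferrin 2 (chr19:43663801-43674881), had 37.6, 29.6 and 31.6 CPM in controls and 44.4, 45.6 and 46.6 CPM in the cold, 1.39-fold higher without overlap (log2 fold change 0.47, SE 0.14, adjusted p = 0.0211). The flow cells differed for this gene: the log2 fold change was 0.74 on flow cell 1 (adjusted p = 0.00463) and -0.09 on flow cell 2 (adjusted p = 0.868). The call was also lost without control mouse 9 (0.0991) or 14 (0.08), without cold mouse 11 (0.0545) or 15 (0.0515), with the muscle covariate (0.0573) and with DESeq2 (0.167), in a range from 0.00463 to 0.868. Slc25a37, mitoferrin 1 of erythroid cells, had 3.72 to 9.19 and 5.51 to 11.1 CPM (adjusted p = 0.580). It shares an identical stretch of 381 to 382 nt with 3 other genes, of which Gm31748 overlaps it on the opposite strand. Together these genes held 13 reads against 79 of Slc25a37. Of 13 genes of heme and iron-sulfur synthesis 1 rose and 3 fell. Alas1, the first enzyme of heme synthesis, rose 1.61-fold (adjusted p = 5e-06).

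Coenzyme and nucleotide carriers formed the largest group, in which 3 of 9 tested members rose and 0 fell. Slc25a17, a peroxisomal carrier of CoA, FAD and NAD (chr15:81318911-81360812), had 94.9, 88.8 and 107 CPM in controls and 214, 236 and 218 CPM in the cold, and rose 2.29-fold (log2 fold change 1.20, SE 0.10, adjusted p = 8.15e-09). Slc25a42, which brings CoA into mitochondria (chr8:70184340-70212305), had 135, 125 and 139 CPM in controls and 243, 228 and 231 CPM in the cold, and rose 1.76-fold (log2 fold change 0.82, SE 0.09, adjusted p = 6.06e-07). Slc25a51, the mitochondrial NAD carrier (chr4:45395923-45408766), had 344, 301 and 346 CPM in controls and 449, 473 and 466 CPM in the cold, and rose 1.40-fold (log2 fold change 0.49, SE 0.08, adjusted p = 0.000104). In all 3 the groups were well apart, and all 3 passed in each of the 17 alternatives, with a highest adjusted p of 8.81e-06 for Slc25a17, 9.41e-05 for Slc25a42 and 0.00213 for Slc25a51.

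The other 6 coenzyme carriers did not pass. Slc25a33, a pyrimidine nucleotide carrier, had 56.1 to 59.6 and 62.9 to 74.4 CPM (adjusted p = 0.192), and its relative Slc25a36 had 34.1 to 42.4 and 35.3 to 42.6 CPM (adjusted p = 0.823). Slc25a32, linked to folate and FAD, Slc25a26, which carries S-adenosylmethionine, and Slc25a16, linked to CoA, had overlapping groups and log2 fold changes of -0.11, 0.30 and -0.22. Slc25a42 held 75.2 to 79.9% of the reads of Slc25a42 and Slc25a16 in controls and 83.3 to 91.1% in the cold (exact two-sided permutation p = 0.10, the smallest possible). Of 11 genes that make or break down CoA 2 rose and 2 fell. Pank1, a pantothenate kinase at the entry of CoA synthesis, rose 1.55-fold (adjusted p = 9.99e-05), its relative Pank3 fell 1.63-fold (adjusted p = 0.000145), and Nudt19, a peroxisomal CoA hydrolase, rose 1.50-fold (adjusted p = 0.000191).

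Members without a settled substrate held the largest change. Slc25a34 (chr4:141618824-141623821) had 9.26, 4.08 and 8.38 CPM in control mice 2, 9 and 14 and 68.1, 94.7 and 92.6 CPM in cold mice 4, 11 and 15. Control levels rested on 16, 8 and 18 reads of its single transcript and cold levels on 141, 189 and 159. It rose 11.7-fold (log2 fold change 3.55, SE 0.21, adjusted p = 4.63e-10) and passed in all 17 alternatives, at log2 fold changes of 3.26 to 3.73. Slc25a35 (chr11:68968131-68974365) moved the other way, from 103, 115 and 134 CPM to 90.3, 82.2 and 85.6 CPM, a 1.37-fold decrease (log2 fold change -0.46, SE 0.11, adjusted p = 0.00456) that passed in all alternatives with a highest adjusted p of 0.0498. Slc25a34 therefore held 3.42 to 8.25% of the reads of this pair in controls and 43.0 to 53.5% in the cold (exact two-sided permutation p = 0.10, the smallest possible). Rangrf, on the opposite strand, shares 1151 nt with Slc25a35. It had 15 reads against 1191, and how many reads of the shared stretch were counted on the wrong gene was not tested.

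Slc25a45 (chr19:5877808-5885878) was low, with 66 reads, and had 2.89, 3.06 and 3.72 CPM in controls and 8.21, 8.52 and 7.57 CPM in the cold. It rose 2.47-fold (log2 fold change 1.30, SE 0.35, adjusted p = 0.00972) and missed the threshold on 4 libraries (0.0568) and with DESeq2 (0.105), in a range from 0.00956 to 0.105. Slc25a46, an outer membrane member that acts in mitochondrial shape (chromosome 18), had 85.6, 65.3 and 72.6 CPM in controls and 88.4, 118 and 88.5 CPM in the cold. Control mouse 2 came close to the lower cold mice, and the gene rose 1.32-fold (log2 fold change 0.41, SE 0.13, adjusted p = 0.0307). That value was 0.139 and 0.109 when control mice 9 and 14 were left out, 0.213 without cold mouse 11, 0.291 on flow cell 2, 0.0642 with the muscle covariate and 0.135 with DESeq2, in a range from 0.00915 to 0.291. B930094E09Rik, a gene on the opposite strand, shares 383 nt with it and had 36 reads against 1002. Of the relatives of uncoupling proteins Slc25a30 had 3.72 to 4.63 and 5.80 to 8.73 CPM, which did not overlap and did not pass (adjusted p = 0.126), and Slc25a14 and Slc25a27 had 19 and 15 reads.

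**Figure D4:**
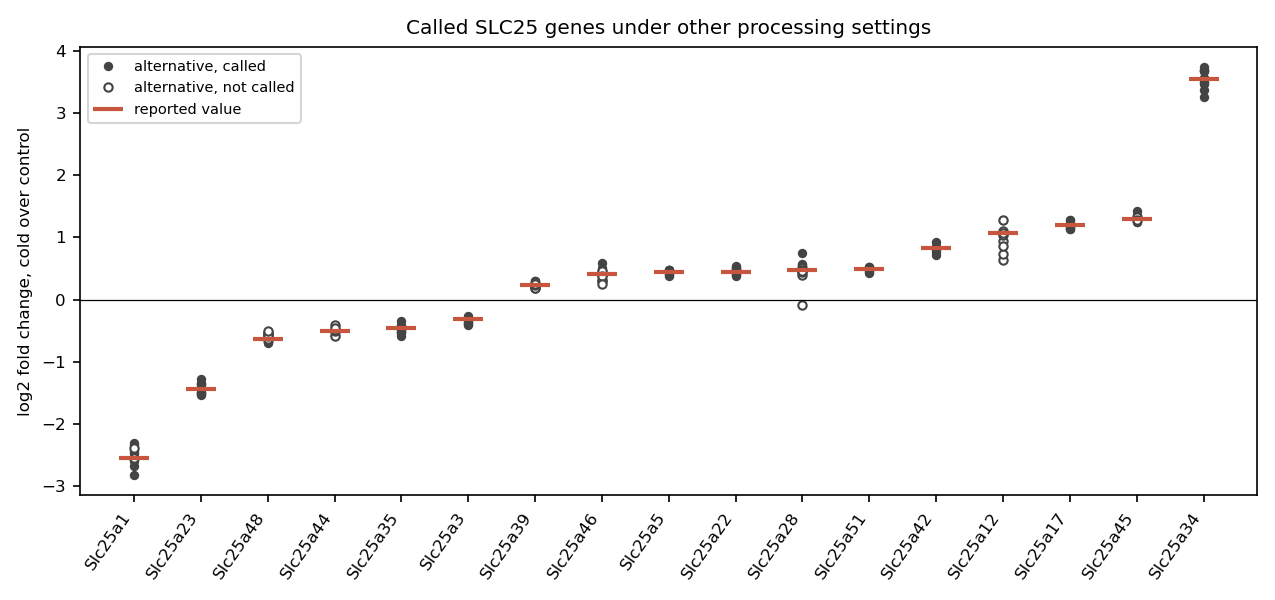
Log2 fold change of the 17 SLC25 genes that passed, as reported (red bar) and in up to 17 other processing settings (dots, open where the adjusted p was 0.05 or more). Points of 9 genes are filled throughout, and Slc25a28 has a point below 0, at -0.09, from flow cell 2 alone.

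Carriers of the family that go by other names were also counted. Ucp1 had 9700 to 11228 CPM in controls and 13665 to 13889 CPM in the cold. Ucp2, a relative found in many tissues, rose 1.64-fold from 36.4 ± 3.19 to 60.0 ± 3.75 CPM (SD, n = 3; adjusted p = 0.000368, edgeR) and passed in every alternative. Ucp3, known from muscle and brown fat, had 81.1 ± 12.9 and 86.2 ± 14.5 CPM (adjusted p = 0.701), and the outer membrane proteins Mtch1 and Mtch2 did not pass (adjusted p = 0.452 and 0.669). Of the 5 tested genes 2 rose and 0 fell, with Ucp1 the other that rose (adjusted p = 0.000144).

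Among 13 tested inner membrane carriers of other families 3 rose and 3 fell. Mpc1, a subunit of the pyruvate carrier, had 2100, 2350 and 2290 CPM in controls and 1520, 1531 and 1276 CPM in the cold (1.56-fold lower, adjusted p = 1.97e-06), while Mpc2, its partner in the complex, had 1879 ± 16.1 and 1707 ± 115 CPM (SD, n = 3; adjusted p = 0.157, edgeR). Sfxn1, which carries serine, fell 2.02-fold from 146 ± 10.8 to 72.3 ± 3.44 CPM (adjusted p = 2e-07). ATP synthase uses the ADP and phosphate that Slc25a4, Slc25a5 and Slc25a3 bring in. Of its 18 listed genes 15 were in the annotation under the listed names, and all 15 were tested. Of these 1 rose and 2 fell, beside 19.5% of all tested genes in either direction. The 2 lower were Atp5c1 at 1.25-fold (adjusted p = 0.00262) and Atp5k at 1.24-fold (adjusted p = 0.00139). Atp5mpl rose 1.17-fold (adjusted p = 0.0204) and passed in 9 of 17 alternatives. In all, 36 genes outside the family came under the naming rule, of which 32 passed, 21 of those in every alternative. The rule picks mostly genes that passed, so the 32 of 36 does not say how often such genes changed. Over all tested genes 19.5% passed.

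To set different carriers side by side, the CPM was divided by the read-weighted length of each gene's transcripts. Long cDNA reads can count a molecule once whatever its length, and by CPM alone the order differs: Slc25a4 (930.4 ± 124 CPM in controls and 1138 ± 161 in the cold) then stands above Slc25a5 (715 ± 27.3 and 973 ± 53.9), and Slc25a51 (330.0 ± 25.5 in controls) above Slc25a11 (206 ± 15.4). Per kb the order in controls began with Slc25a5 at 578 ± 22.0, Slc25a4 at 485 ± 64.8, Slc25a1 at 439 ± 105 and Slc25a20 at 391 ± 28.6 CPM per kb (SD, n = 3). The SD of Slc25a1 reached both its neighbours in this order, Slc25a4 and Slc25a20, so these places do not differ beyond the spread. Slc25a3 followed at 345 ± 3.73 and Slc25a39 at 262 ± 15.9 CPM per kb, before a step down to Slc25a11 at 121 ± 9.00. In the cold the order per kb was Slc25a5 (786 ± 43.6 CPM per kb) and Slc25a4 (593 ± 83.6), which change places by CPM, followed by Slc25a20 (448 ± 31.9), Slc25a39 (309.9 ± 2.66) and Slc25a3 (276 ± 20.2). Slc25a1 went from the third place to place 10, at 74.8 ± 26.6 CPM per kb, and Slc25a17 from place 10 to place 6, at 130.5 ± 7.14. Slc25a34 went from place 27, at 2.71 ± 1.04, to place 15, at 31.9 ± 5.53 CPM per kb, beside Slc25a35 at 34.1 ± 1.63. Slc25a23 went from place 15 to place 22.

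**Figure D5:**
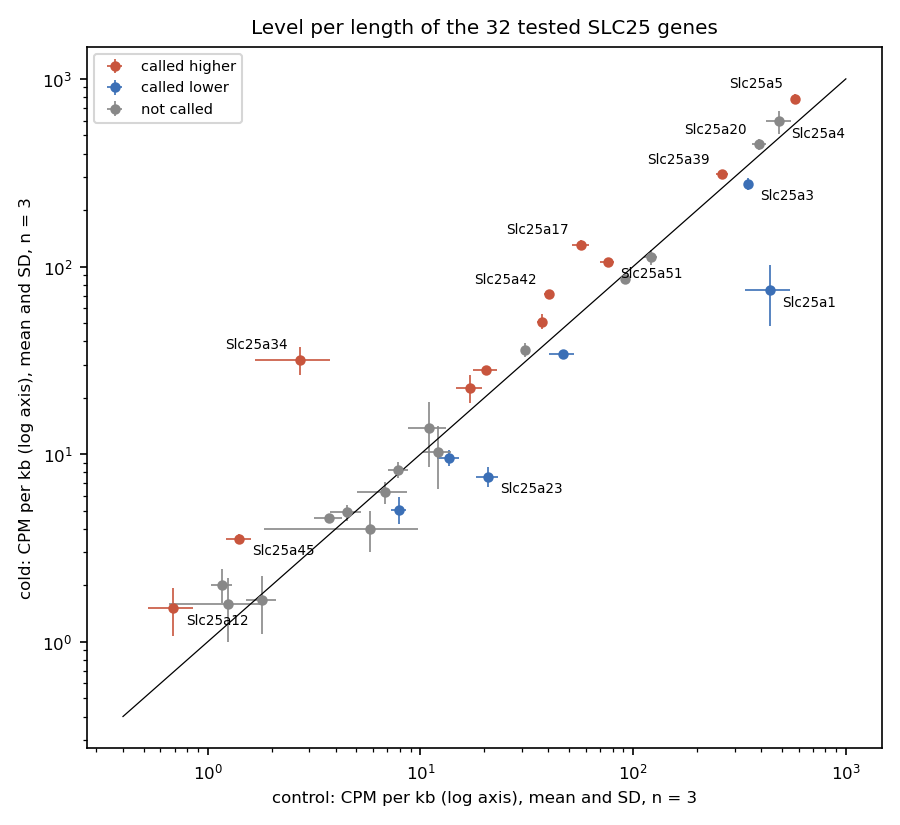
Level of the 32 tested SLC25 genes in CPM per kb of transcript, cold against control on log axes, as mean and SD of 3 mice, with the line of equal level. Slc25a5 lies at the top right, Slc25a1 furthest under the line and Slc25a34 furthest above it.

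All members together took 0.526, 0.573 and 0.566% of the reads in control mice 2, 9 and 14 and 0.606, 0.609 and 0.639% in cold mice 4, 11 and 15, groups that did not overlap (exact two-sided permutation p = 0.10, the smallest possible). A few genes carried most of that sum. Of the 68964 family reads the 3 most-read members held 44.3% and the 10 most-read 84.1%. Reads under the filter came from 11 members, from Slc25a21 with 1 read to Slc25a53 with 43, and also from Slc25a47, known from liver, with 12. Not a single read was counted for Slc25a2, Slc25a41, Slc25a43 and Slc25a54. For those 4 a count of 0 allows up to 1.34 to 1.81 CPM in a library.

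The long reads were also counted per transcript. Of 169 family transcripts with a read 57 were tested, of which 11 rose and 7 fell, beside 16.3% of all 11699 tested transcripts (8.33% higher and 7.95% lower). DESeq2 called 9 higher and 4 lower. Coding transcripts held 91.7% of the family's reads, transcripts with a retained intron 5.84% and those marked for nonsense-mediated decay 2.05%. Some genes had 1 of several transcripts that passed. Slc25a22-201 had 8.95, 16.3 and 18.7 CPM in controls and 30.6, 34.9 and 24.6 CPM in the cold (log2 fold change 1.01, adjusted p = 0.00151, edgeR), while the other 6 tested transcripts of the gene did not pass. Slc25a35-202 fell from 78.1 ± 8.29 to 48.7 ± 2.70 CPM (SD, n = 3; log2 fold change -0.68, adjusted p = 0.000303), and the longer Slc25a35-201 had 42.6 ± 9.35 and 38.2 ± 4.21 CPM (adjusted p = 0.539). Of the 4 tested transcripts of Slc25a44 only Slc25a44-203 passed (log2 fold change -0.89, adjusted p = 0.0243). The transcript of Slc25a39 that passed, Slc25a39-213, has a retained intron and no coding sequence, and held 40.5% of that gene's reads (log2 fold change 0.30, adjusted p = 0.0234). Its main coding transcript, Slc25a39-201, had 190.3 ± 9.85 and 224 ± 9.84 CPM (adjusted p = 0.0757).

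In Slc25a42, 3 of 4 tested transcripts rose, by log2 fold changes of 1.01, 0.88 and 0.71, the last for Slc25a42-204, which retains an intron and held 42.0% of the gene's reads. In Slc25a51, 2 of 3 rose, Slc25a51-201 by 0.39 and Slc25a51-202 by 0.58. Whether transcripts of a gene changed unequally was tested directly in the 13 members with at least 2 tested transcripts. With edgeR's diffSpliceDGE and Simes p-values 0 of the 13 passed, and 0 had an unadjusted p under 0.05, while 0.195% of 2568 genes passed. The gene-level F test of the same tool gave 0 passed and 2 with an unadjusted p under 0.05, the smallest adjusted p being 0.486 for Slc25a3. Shares that parted the groups were those of Slc25a22-201 (13.3 ± 4.94% of its gene's reads in controls and 19.8 ± 2.54% in the cold), Slc25a35-202 (64.6 ± 3.97 and 55.3 ± 4.09%) and Slc25a51-202 (47.8 ± 1.32 and 51.4 ± 2.01%), each with an exact two-sided permutation p of 0.10, the smallest possible, or 0.283 adjusted over 17 shares.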

How the data were processed

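Per the labels' protocols, poly(A) RNA from brown fat was captured in 2 rounds, and 100 ng went into a barcoded direct cDNA library. The deposited files hold the authors' whole-number read counts per transcript, 12 tables, with no normalization. The submitters' processing notes name minimap2 and GRCm38. Its version, the counting tool, the use of strand and the handling of reads matching several transcripts were not stated there.

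Transcripts were matched to GENCODE M21 (59371 of 59543), leaving out 0.0836% of reads, and counts were summed over both flow cells and per gene. Labels name separate mice, so n is mice. Genes and transcripts were tested in edgeR 4.0.16 (filterByExpr, TMM, glmQLFit with robust estimation, glmQLFTest, Benjamini-Hochberg over all tested features, 0.05), run in R 4.3.3. CPM uses TMM library sizes, and SE and 95% intervals are on the log2 scale. Shares were compared by exact permutation over mice. Alternatives were DESeq2 1.42.0, RLE factors, other filters, single flow cells, a muscle covariate (mean log2 CPM of its markers), 4 libraries (without control mouse 2 and cold mouse 15) and each mouse left out. The legacy edgeR fit was added after the data were seen. Scripts were tested on simulated data. Near-identical stretches in other genes were sought with minimap2 2.31 (200 nt, 95% identity).

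Named were all members that passed, the most abundant member of each substrate group, members with a transcript that passed, members under the filter by reads, and outside the family up to 3 genes that passed in each partner list, with the uncoupling and pyruvate carriers. The members and lists were chosen with earlier results of these data known. Other members were named after their values were seen. The values of 1 member that did not pass are not reported here.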

Additional observations from a re-analysis of the deposited data

How the results depend on the processing

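Of the 17 SLC25 genes that passed, 9 passed in each of the 17 alternatives run, and 8 lost the call in at least 1, as given beside each gene. Of the 15 others 3 passed in at least 1 (Slc25a4, Slc25a10 and Slc25a20). The counts that moved by over 1.5 times were these. DESeq2 called 6 members higher (11 as reported), 492 genes higher and 439 lower over all genes, and 4 family transcripts lower. Flow cell 2 alone gave 7 members higher, 429 genes higher and 408 lower, from fewer tested genes (5348). The muscle covariate gave 548 genes lower, and 4 libraries gave 506. Leaving out 1 mouse gave 7 to 10 members higher, 7 without control mouse 9 or cold mouse 11. Some log2 fold changes changed sign, all of them of genes that did not pass except Slc25a28. On flow cell 1 alone Slc25a32 had 0.05 and Slc25a38 -0.33, and on flow cell 2 Slc25a26 had -0.0084 and Slc25a28 -0.09. With the muscle covariate Slc25a26 had -0.08, Slc25a36 -0.06 and Slc25a38 -0.0028. On 4 libraries Slc25a11 had 0.01, Slc25a16 0.09, Slc25a26 -0.12, Slc25a36 -0.03, Slc25a37 -0.04, Slc25a38 -0.03, Mtch1 0.0047 and Mtch2 0.02. Without control mouse 2 Slc25a36 had -0.0019, without control mouse 9 Slc25a32 had 0.12 and Ucp3 -0.03, and without control mouse 14 Slc25a40 had 0.01. Without cold mouse 4 Slc25a40 had 0.14 and Ucp3 -0.06, and without cold mouse 15 Slc25a26 had -0.03. Over the fits that each left out 1 mouse the ranges were -0.03 to 0.47 for Slc25a26, -0.27 to 0.12 for Slc25a32, -0.36 to 0.14 for Slc25a40 and -0.06 to 0.20 for Ucp3. The cause was not tested. No paired analysis was possible because the mouse numbers differ between the groups. Usage was called in 0 members in the alternatives run for it (no filter, each flow cell, each mouse left out and the F test), with a smallest adjusted p of 0.281 without cold mouse 4 (Slc25a3). Members with few reads, such as Slc25a12 (68), Slc25a30 (65) and Slc25a45 (66), are limited by depth.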
